A study of Mus musculus with 14 samples.

Results

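Cytochrome P450 enzymes were followed through 14 mouse arrays as every measured gene whose symbol is written as Cyp, a number, a letter and a number (Cyp51, the sterol demethylase, is thereby outside). Among probe sets annotated with a single symbol, the 1 with the highest mean stood for its gene. This gave 62 P450 genes of the 12393 genes on the array, in 29 subfamilies of 14 families. Another 4 probe sets carried several P450 symbols and were kept out of the gene values.

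Cytochrome P450s are haem enzymes that use molecular oxygen to hydroxylate or epoxidise their substrates, with electrons supplied by P450 reductase in the endoplasmic reticulum or by adrenodoxin in mitochondria. In the adult liver, members of families CYP1, CYP2 and CYP3 oxidise drugs and toxins, CYP4 enzymes hydroxylate the chain ends of fatty acids and eicosanoids, and CYP7A, CYP7B, CYP8B, CYP27A and CYP39A enzymes turn cholesterol into bile acids. Many of them appear only as fetal hepatoblasts become hepatocytes, and others belong to the gut, lung, kidney or steroid-producing glands.

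The cells were hepatoblasts from wild-type mouse embryos at day 14, immortalised by plating at clonal density and grown in serum-containing medium with epidermal growth factor, insulin-like growth factor II and insulin. Their doxycycline-inducible constructs held nothing (vector), isocitrate dehydrogenase 1 or 2 in wild-type form (IDH1, IDH2), or the mutants IDH1 R132C or IDH2 R172K. All 5 kinds of cell were grown on rat tail collagen, and vector and IDH1 R132C cells were also kept without coating for at most 5 days, the setting of the hepatocyte differentiation assay. Each of the 7 groups had 2 cultures with 1 array each. Doxycycline at 25 ng/mL is stated for the IDH1 experiments, and which vector cultures received it is not given in the sources used here, nor are the days in culture on collagen. All cells share the same immortalised origin, so every group describes cells kept in culture and not liver.

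The median intensity of an array was 134.9 to 148.3, and across genes the correlation of replicates was 0.994 to 0.998, with the widest replicate differences in R172K (SD 0.307 log2 against 0.181 to 0.238 in the other groups). Of the fetal markers, Afp stood at log2 9.24 to 11.5 as group means, while Dlk1 never exceeded a mean of 5.50 and Gpc3 was near background on 9 of 14 arrays. Of 11 measured hepatocyte markers, Apob, Ttr and Apoa1 were above the array's lower quartile on all 14 arrays. Their group means were 11.4 to 13.2, 5.83 to 9.14 and 5.85 to 6.19. Apoc3, Tat, Cps1, Pck1 and G6pc were near background on all 14, Alb on 10, Tdo2 on 9 and Fgb on 7. Krt19, a bile duct keratin, and the intestinal markers Cdx2 and Cdh17 were also present, the latter pair at group means of 9.44 to 11.3 and 10.2 to 12.5. In bulk cultures, fewer cells of a type and less RNA per cell cannot be told apart.

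Most P450 genes read near background in these cells. A level is a log2 intensity, and near background means at or under the lower quartile of its own array, which lay at 4.72 to 4.81. On that measure 36 of the 62 genes (58.1%) were near background on all 14 arrays, against 17.4% of all 12393 genes. Another 13 were above the quartile on all arrays, and the remaining 13 were above it on some. As a second gauge, 117 genes of other tissues, such as odorant receptors and lens crystallins, had a median level of 3.92, and 82 of them were near background on all arrays. Their 95th percentile was 6.21 and the highest stood at 10.5, so a level above the quartile does not by itself show expression. Probe sets differ in how brightly they read, so the levels of different genes are not compared as amounts.

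The members near background include the best known enzymes of the adult liver. Among them is Cyp2e1, the ethanol-oxidising enzyme, with a mean level of 4.08. Cyp1a2, which oxidises caffeine and aromatic amines, had a mean of 4.29. Cyp3a11, the main drug-oxidising CYP3A of mouse liver, had a mean of 3.43. Cyp7a1, the first and rate-limiting enzyme of bile acid synthesis, had a mean of 3.77. All 4 stayed near background on uncoated plates as well as on collagen. Over these 36 genes the means ran from 3.08 to 4.47, and the widest range over 14 arrays was 0.88.

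By family, CYP2 was the largest, with 22 of 31 genes near background throughout and 5 above the quartile on all arrays. In CYP2C, 7 of 11 genes were near background on all arrays, among them Cyp2c29, and in CYP2D 6 of 7. In CYP3A 4 of 5 were, with Cyp3a13 the exception. CYP4 was the family with the widest spread of states, with 4 of 10 genes near background, 3 above the quartile on all arrays and 3 above it on some. Both CYP7 genes were near background, and Cyp8b1, the sterol hydroxylase that sets the ratio of cholic acid to other bile acids, lay between 4.77 and 5.29, at or under the quartile on 1 array. The number of genes above the quartile on both arrays of a group was 18 for vector and 18 for wild-type IDH1 on collagen, and 16 each for R132C, wild-type IDH2 and R172K. It was 23 for vector and 19 for R132C cells on uncoated plates.

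**Figure D1:**
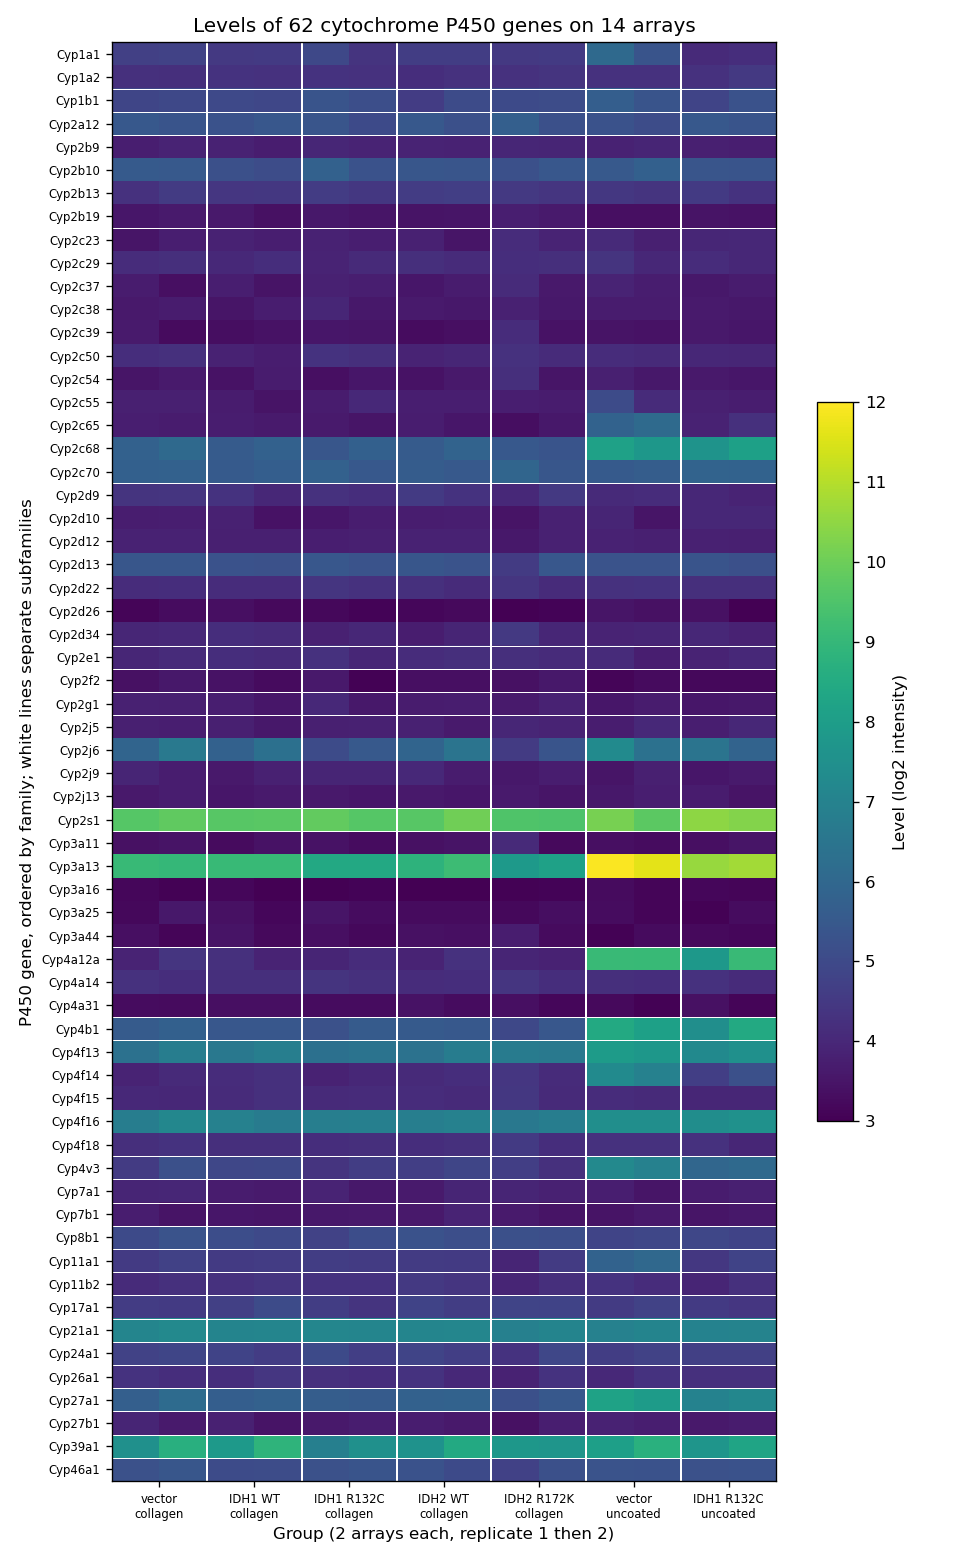
Levels (log2 intensity, colour scale) of the 62 P450 genes, in rows ordered by family with thin white lines between subfamilies, on the 14 arrays, in columns grouped by cell and plate with replicate 1 then 2. Dark rows are the genes near background, and the brightest changes lie in the uncoated columns on the right, as in Cyp4a12a, Cyp4b1 and Cyp3a13.

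Among the members above the quartile on all arrays some hardly moved in any group, and others varied between replicates. Cyp21a1, a steroid hydroxylase of the adrenal cortex, kept to 6.91 to 7.23 over all 14 arrays. Cyp2a12, Cyp2b10, Cyp2c70 and Cyp46a1, the last a cholesterol hydroxylase best known in brain, each ranged over 0.53 to 0.71 log2. Cyp39a1, which hydroxylates oxysterols on the way to bile acids, was above the quartile on all arrays and varied more between replicates, from 6.90 to 8.85, with replicate 2 above replicate 1 in 6 of the 7 groups.

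The first comparison asked what the uncoated plate changed in vector cells. Here 14 P450 genes rose and none fell (limma, Benjamini-Hochberg adjusted p under 0.05), which is 22.6% of the 62 members. Over all genes the plate changed 29.3%, with 15.1% of genes higher and 14.2% lower. The P450 share was thus above that of all genes for rises and below it for changes in either direction. On collagen 42 of the 62 members were above the quartile on neither vector array, and 43 on neither R132C array. Such members have little room to read lower, so nothing is read from the absence of falls in either kind of cell. The median change of the members was 0.04 log2, against -0.02 for all genes, most members being near background. In 10 of the 14 the fitted change was at least 2-fold. The share of all genes at that fold was not counted, so this is not read as particular to P450s. In R132C cells the same step raised 11 P450 genes (17.7% of members) and lowered none, against 13.6% of all genes higher and 12.3% lower (25.9% in either direction). The member median was -0.01 and the all-gene median -0.03. Of the P450 genes that rose, 10 rose in both kinds of cell, which is 71.4% of the vector list and 90.9% of the R132C list. The overlap over all genes was not counted, so these shares are not read as particular to P450s. The 2 plate comparisons share no array.

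Fatty acid hydroxylases of family CYP4 held the largest rises. Cyp4a12a hydroxylates the chain end of arachidonic acid and is known from mouse kidney and liver. Its levels on collagen were 3.91 and 4.38 in vector and 3.93 and 4.15 in R132C cells, against 9.09 and 9.07 in vector and 7.81 and 9.10 in R132C cells on uncoated plates. It was near background on all 10 collagen arrays and far above on all 4 uncoated arrays. The rise was at least 19.8-fold in vector cells (log2 change 4.93, SE 0.312, adjusted p = 5.33e-07) and at least 12.8-fold in R132C cells (4.41, SE 0.312, adjusted p = 6.1e-06). These bounds set the brighter group against the lower quartile of the dimmer group's arrays, as do all the bounds that follow. Cyp4a12b lies next to Cyp4a12a in RefSeq's gene order and is a close copy, so reads of both by the same probe set cannot be told apart.

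Cyp4b1, an enzyme of lung and kidney that hydroxylates fatty acids and activates some plant toxins, rose in parallel. Its levels were 5.59 and 5.77 in vector cells on collagen and 8.47 and 8.11 on uncoated plates. In R132C cells they went from 5.23 and 5.60 to 7.44 and 8.45. The plates did not overlap in either kind of cell, which adds nothing to the test on the same arrays. The log2 changes were 2.61 and 2.53 (SE 0.270, adjusted p = 2.05e-05 and 6.18e-05), or 6.10- and 5.78-fold.

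Cyp4v3 is the mouse counterpart of human CYP4V2, a fatty acid hydroxylase whose loss causes a crystalline retinal disease. Its levels were 4.58 and 5.19 in vector cells on collagen and 7.25 and 6.95 without coating. In R132C cells they were 4.35 and 4.65 on collagen and 5.96 and 6.07 on uncoated plates. The change was 2.22 in vector cells (SE 0.203, adjusted p = 9.01e-06) and 1.52 in R132C cells (SE 0.203, adjusted p = 0.000218), where it was at least 2.36-fold.

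The CYP4F enzymes, which inactivate leukotriene B4 and related eicosanoids, differed among themselves. Cyp4f14 stood at 3.90 and 4.09 in vector cells on collagen and at 7.30 and 6.94 on uncoated plates. In R132C cells it stood at 3.87 and 4.0 on collagen but only at 4.68 and 5.21 on uncoated plates, close to the lower quartile. The rise was at least 5.10-fold in vector cells (log2 change 3.13, SE 0.177, adjusted p = 2.78e-07) and at least 1.13-fold in R132C cells (1.01, SE 0.177, adjusted p = 0.00118). Cyp4f13, its neighbour on chromosome 17, was above the quartile on all arrays and rose by 1.25 in vector and 1.02 in R132C cells (SE 0.176, adjusted p = 0.000175 and 0.00104). Cyp4f16 rose by 0.45 and 0.61 (SE 0.141, adjusted p = 0.0293 and 0.00632), and the smaller vector change lost its call without vector on collagen replicate 1 (0.27, adjusted p = 0.297) or without either uncoated vector array, while the R132C change lost it without R132C uncoated replicate 2 (0.54, adjusted p = 0.0677). Cyp4f15 and Cyp4f18 were near background on all arrays.

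In CYP3A the member above the quartile on all arrays, Cyp3a13, is a steroid- and drug-oxidising enzyme of mouse liver and gut. Its levels were 9.08 and 8.98 in vector cells on collagen, and 11.93 and 11.62 on uncoated plates. In R132C cells they were 8.44 and 8.43 on collagen, and 10.60 and 10.77 on uncoated plates. On each plate the R132C arrays lay below the vector arrays, an order that adds nothing to the tests given below. The rise was 6.71-fold in vector cells (log2 change 2.75, SE 0.143, adjusted p = 1.21e-07) and 4.75-fold in R132C cells (2.25, SE 0.143, adjusted p = 3.85e-06). In RefSeq's gene order Cyp3a13 lies apart from the row of other CYP3A genes on chromosome 5, all 4 of whose measured members were near background.

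Of the CYP2C genes, which oxidise arachidonic acid, drugs and steroids, Cyp2c68 rose to much the same level in both kinds of cell. It went from 5.78 and 6.06 to 8.14 and 7.78 in vector cells, and from 5.42 and 5.75 to 7.62 and 8.10 in R132C cells. The changes were 2.04 and 2.28 (SE 0.193, adjusted p = 1.09e-05 and 2.07e-05), with a difference of 0.24 (95% confidence interval -0.35 to 0.83). Several close copies, such as Cyp2c67, Cyp2c40 and Cyp2c69, lie beside it in the gene order, and the probe set may read them too.

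Cyp2c65 and Cyp2c55, neighbours at the end of the CYP2C row on chromosome 19 and best known from the mouse gut, behaved differently from Cyp2c68. Cyp2c65 was at 3.77 and 3.69 in vector cells on collagen and at 5.85 and 6.11 on uncoated plates. In R132C cells it was at 3.67 and 3.51 on collagen and at 3.86 and 4.26 on uncoated plates, so all 4 of its R132C arrays were near background. The rise was at least 2.31-fold in vector cells (log2 change 2.25, SE 0.149, adjusted p = 7.96e-07). The R132C change of 0.47 (SE 0.149, adjusted p = 0.0323) has no fold, since both plates were near background, and its call was lost without R132C on collagen replicate 1 or 2 or without R132C uncoated replicate 2 (0.55, 0.39 and 0.27, adjusted p = 0.0712, 0.178 and 0.325). Cyp2c55 rested on a single array. It read 3.79 and 3.79 on collagen and 5.06 and 4.10 on uncoated plates in vector cells (0.79, SE 0.224, adjusted p = 0.0173), and without the brighter array, vector uncoated replicate 1, the change was 0.31 (adjusted p = 0.200). The call was also lost without either vector array on collagen (adjusted p = 0.0758 and 0.0622).

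Cyp27a1 is the mitochondrial sterol hydroxylase that opens the alternative route to bile acids. Unlike Cyp27b1, the vitamin D activating enzyme, it was above the quartile on all arrays. Its levels rose from 5.73 and 6.13 to 8.17 and 7.95 in vector cells, and from 5.64 and 5.57 to 6.99 and 7.16 in R132C cells. The groups did not overlap, which adds nothing to the test on the same arrays. The changes were 4.38-fold (log2 2.13, SE 0.152, adjusted p = 1.35e-06) and 2.77-fold (1.47, SE 0.152, adjusted p = 5.73e-05).

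Of P450s usually found outside the liver, Cyp11a1, the mitochondrial enzyme that cuts the cholesterol side chain to start steroid synthesis, rose in vector cells from 4.53 and 4.75 to 5.82 and 6.03. That is at least 2.22-fold (log2 change 1.28, SE 0.184, adjusted p = 0.000198). In R132C cells it read 4.62 and 4.57 on collagen and 4.44 and 4.82 on uncoated plates (0.04, 95% confidence interval -0.36 to 0.43). Of the markers of steroid-producing cells none passed the test in either plate comparison, and Hsd3b1 was near background on all arrays. The other 3 of that list, Star, Nr5a1 and Amh, were above the quartile on all 14 arrays, with mean levels of 5.53, 5.87 and 6.45.

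Cyp1a1 and Cyp1b1, both targets of the aryl hydrocarbon receptor that oxidise polycyclic hydrocarbons, also rose in vector cells. Cyp1a1 went from 4.69 and 4.78 to 6.08 and 5.34 (0.98, SE 0.213, adjusted p = 0.00372), and without vector uncoated replicate 1 the change was 0.61 (adjusted p = 0.0527). In R132C cells it went from 4.97 and 4.37 to 4.06 and 4.18 (-0.55, adjusted p = 0.0771). It was near background on both uncoated R132C arrays and on 10 of 14 arrays in all, so no order is read among those. Cyp1b1 went from 4.88 and 4.94 to 5.71 and 5.34 in vector cells (0.61, SE 0.180, adjusted p = 0.0205). That call was lost without vector uncoated replicate 1 (0.43, adjusted p = 0.197) or without either vector array on collagen (adjusted p = 0.104 and 0.0607). Cyp2s1, a P450 of epithelia outside the liver with all arrays between 9.48 and 10.49, passed the test in R132C cells, from 9.85 and 9.61 to 10.49 and 10.32 (0.67, SE 0.151, adjusted p = 0.00547), though not without R132C on collagen replicate 2 (0.56, adjusted p = 0.0622). In vector cells its change was 0.24 (95% confidence interval -0.08 to 0.57).

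**Figure D2:**
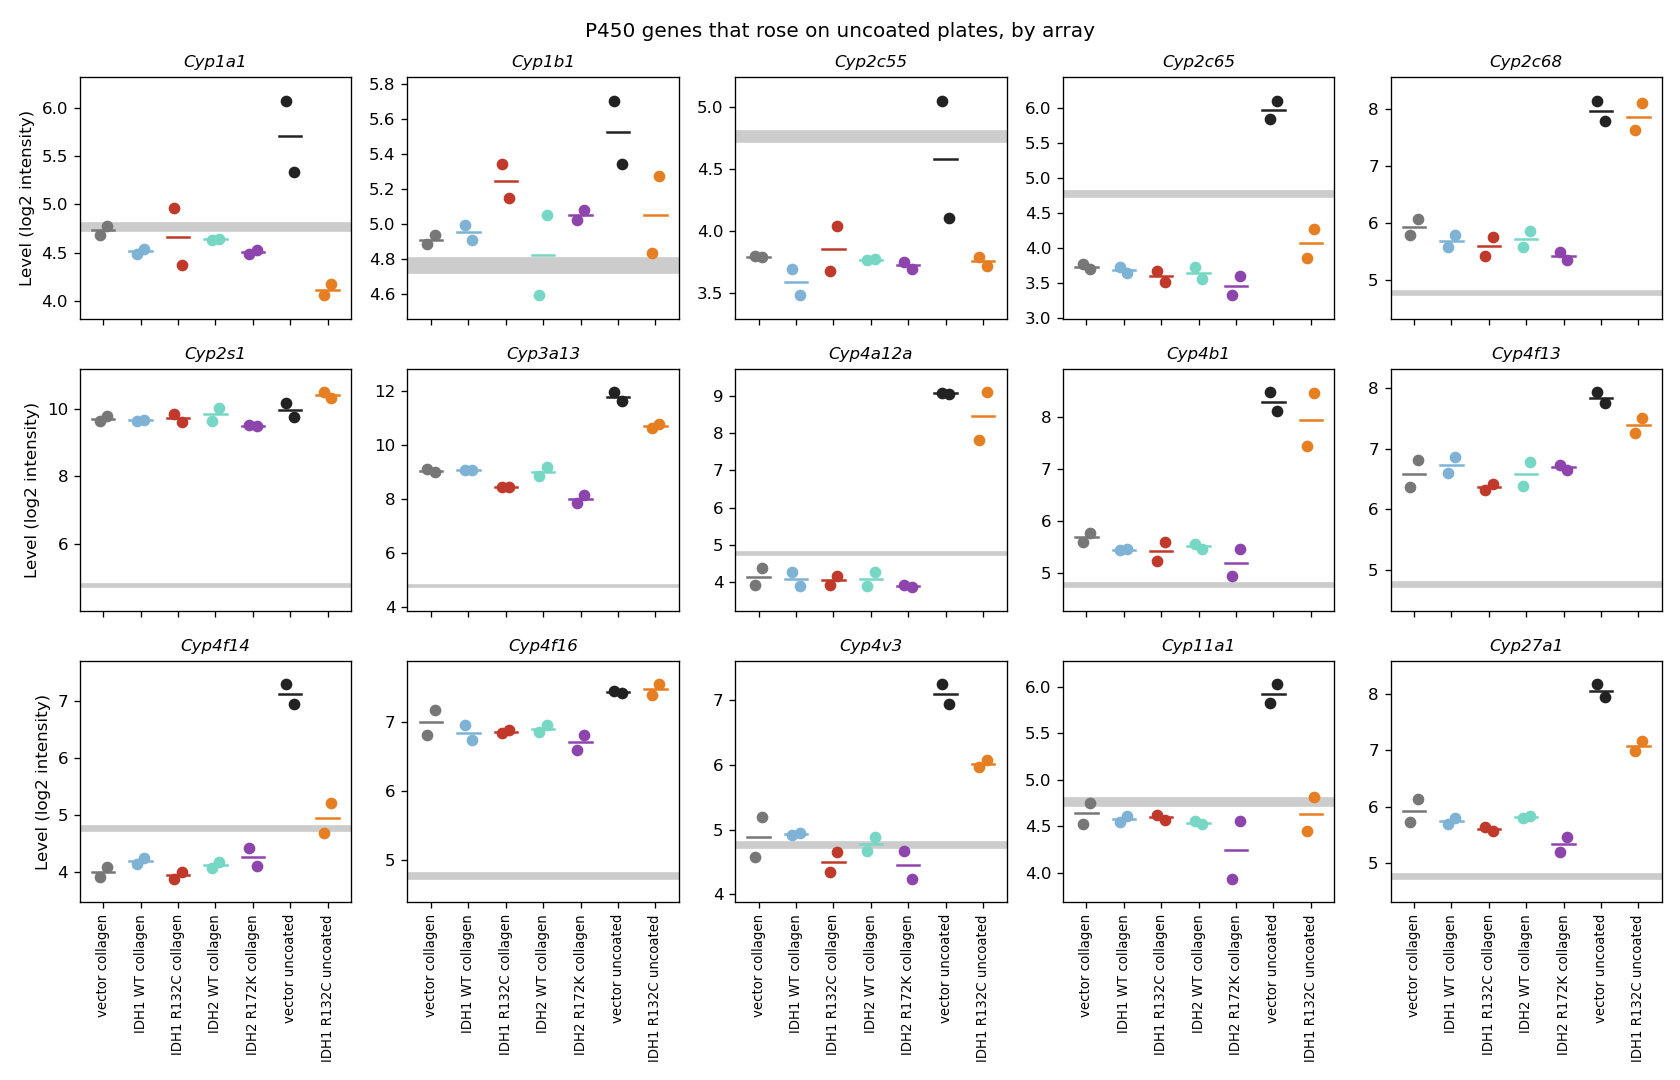
Level (log2 intensity) on each array for the 15 P450 genes that rose on uncoated plates in vector cells, R132C cells or both. Points are the 2 arrays of a group, the short line is their mean, the grey band is the range of the arrays' lower quartiles, and each panel has its own vertical scale. Cyp4a12a lies under the band on all collagen arrays and between 7.81 and 9.10 on uncoated plates, while uncoated R132C arrays of Cyp2c65 stay under the band.

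Of the 15 genes that rose, 5 were near background on all collagen arrays and 7 were above the quartile on every array. With genes under the 30th percentile of mean level left out, 7 of the 13 members left were called in vector cells, where 41.6% of the 8675 genes left were called. Cyp4a12a was among the 13 only through its uncoated arrays, so nothing is read from that count. Where a member had further probe sets, they gave 1.31 for Cyp4v3 (from a mean of 3.60, under the quartile, to 4.91, adjusted p = 0.000420), 0.19 for Cyp4f16 (adjusted p = 0.290) and 0.04 and 0.32 for Cyp1b1 (adjusted p = 0.912 and 0.0977) in vector cells. Of the further sets of Cyp2b10, 1 passed the test (0.68, adjusted p = 0.0138) but was near background on all 14 arrays, with means of 3.66 on collagen and 4.34 on uncoated plates, while the set that stood for the gene gave 0.10.

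Markers of other tissues moved with the plate too. Of the 6 measured intestinal markers, 5 rose in vector and 2 in R132C cells and none fell. Vil1, an actin bundler of brush borders, rose by 2.08 and 2.36, and Cdx2, the intestinal homeobox factor, by 1.73 in vector cells. The summed level of the intestinal list went from 12.10 to 12.23 on collagen to 13.27 to 13.35 on uncoated plates in vector cells, and from 11.44 to 11.71 to 12.70 to 13.12 in R132C cells. Cdx1 of this list was near background on all arrays and Fabp2 on 12 of 14. Of the 11 measured hepatocyte markers, 3 rose in vector cells, and 3 rose and 1 fell in R132C cells, with a summed level going from 12.05 to 12.20 to 13.13 to 13.52 in vector cells and from 11.62 to 11.92 to 12.51 to 13.37 in R132C cells. Ttr, the plasma carrier of thyroid hormone, rose by 3.06 in vector and 1.15 in R132C cells. Of the 6 measured biliary markers, 4 rose and 2 fell in vector cells, and 3 rose and 1 fell in R132C cells. Sox9, a duct cell transcription factor, rose by 2.02 and 1.98 and Epcam, an epithelial adhesion protein, by 1.83 and 1.08, while Krt7 fell by 0.84 and 0.55. Cftr of this list also passed in vector cells but was near background on all arrays. The summed biliary level went from 14.55 to 14.73 to 14.27 to 14.43 in vector cells, and from 14.63 to 14.70 to 14.39 to 14.41 in R132C cells. Of the 4 measured hepatoblast markers only Afp passed the test, and it fell by 1.39 and 0.83. The summed hepatoblast level went from 10.73 to 10.75 to 9.36 to 9.64 in vector cells, and from 11.53 to 11.63 to 10.47 to 11.10 in R132C cells. Of the leukocyte list Ptprc rose by 1.73 and 1.19, and at most 1 marker each of the endothelial and mesenchymal lists passed the test in either plate comparison. The part of these marker lists in the P450 changes was not tested.

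The promoters of 5 genes that rose on uncoated plates in vector cells are shown to let the reader compare them. Of these, Cyp4f14 and Cyp2c65 had a smaller fitted rise in R132C cells, from collagen levels near background in both kinds of cell. The windows run from 250 bases before to 50 bases after the RefSeq start, in mouse build GRCm38.p6, on the gene's own strand. They are chr5:137921570-137921869 on the minus strand for Cyp3a13, chr4:115647672-115647971 on the minus strand for Cyp4b1, chr17:32917307-32917606 on the minus strand for Cyp4f14, chr19:39060756-39061055 on the plus strand for Cyp2c65 and chr1:74713285-74713584 on the plus strand for Cyp27a1. Capitals mark matches to any of 5 short motifs on either strand.
Cyp3a13: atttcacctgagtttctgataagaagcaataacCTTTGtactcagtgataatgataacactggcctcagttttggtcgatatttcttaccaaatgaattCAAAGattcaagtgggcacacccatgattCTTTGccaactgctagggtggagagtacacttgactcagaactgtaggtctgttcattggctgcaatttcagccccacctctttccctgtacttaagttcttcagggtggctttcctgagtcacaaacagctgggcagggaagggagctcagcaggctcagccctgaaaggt
Cyp4b1: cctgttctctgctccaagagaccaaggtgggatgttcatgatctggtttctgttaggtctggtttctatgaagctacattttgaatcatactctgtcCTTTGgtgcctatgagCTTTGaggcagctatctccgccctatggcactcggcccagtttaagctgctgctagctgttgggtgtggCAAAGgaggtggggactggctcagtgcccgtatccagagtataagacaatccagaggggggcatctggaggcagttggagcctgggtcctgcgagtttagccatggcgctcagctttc
Cyp4f14: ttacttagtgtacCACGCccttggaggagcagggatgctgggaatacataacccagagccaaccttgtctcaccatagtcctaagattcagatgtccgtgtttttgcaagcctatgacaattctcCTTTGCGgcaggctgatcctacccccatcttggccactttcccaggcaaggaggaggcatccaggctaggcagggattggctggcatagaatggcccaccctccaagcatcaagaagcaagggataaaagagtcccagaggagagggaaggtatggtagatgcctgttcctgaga
Cyp2c65: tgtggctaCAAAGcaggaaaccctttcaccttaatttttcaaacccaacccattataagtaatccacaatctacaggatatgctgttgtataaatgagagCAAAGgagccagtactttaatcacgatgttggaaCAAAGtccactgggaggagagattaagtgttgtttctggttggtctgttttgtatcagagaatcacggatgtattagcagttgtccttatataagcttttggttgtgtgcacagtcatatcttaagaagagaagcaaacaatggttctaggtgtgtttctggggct
Cyp27a1: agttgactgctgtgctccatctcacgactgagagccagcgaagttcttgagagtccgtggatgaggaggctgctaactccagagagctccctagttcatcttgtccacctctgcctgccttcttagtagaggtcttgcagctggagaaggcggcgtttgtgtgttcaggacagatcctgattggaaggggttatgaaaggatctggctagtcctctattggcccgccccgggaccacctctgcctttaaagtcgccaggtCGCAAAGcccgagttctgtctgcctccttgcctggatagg

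Among these 5 windows the matches are mostly CAAAG, the core of the HNF4A site, which appears 3 times each in Cyp3a13, Cyp4b1 and Cyp2c65. In Cyp4f14 and Cyp27a1 it overlaps TTGCG, a C/EBP half-site. Each motif was searched as written and as its reverse complement. CAAAG was found in 9 of the 14 windows of genes that rose, against 84.4% of the 45 P450 genes with a window and 54.0% of all 27025 genes with one, so its share among the genes that rose was below that of the P450 genes as a whole. TTGCG was found in 3 of 14, against 8.89% of P450 genes and 17.5% of all genes. GCGTG, the dioxin response core, was in 6 of 14, against 22.2% and 32.5%. GTTAAT, an HNF1 half-site, was in 1 of 14, against 4.44% and 7.20%. AGGTCA, the nuclear receptor half-site, was in none of the 14, against 24.4% and 16%. A match is a string of letters and not a bound site, and windows without a match say nothing of the factor.

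Whether R132C changed the response to the plate was asked by the difference between both plate effects. Only Cyp4f14 and Cyp2c65 passed that test among the 62 members (3.23%), both with a smaller rise in R132C cells, against 0.25% of all genes. All 31 genes called over the array had a negative difference, so that sign is not particular to P450s. For Cyp4f14 the effect in R132C cells minus that in vector cells was -2.12 log2 (SE 0.251, adjusted p = 0.00145). For Cyp2c65 the difference was -1.77 (SE 0.211, adjusted p = 0.00145). Both genes were near background on collagen in vector and R132C cells alike, and Cyp2c65 also in R132C cells on uncoated plates. The size of each rise is therefore not known, and neither is that of the difference. What the arrays resolve is the lower level of R132C than of vector cells on uncoated plates, given below. Cyp1a1 (-1.53, SE 0.301, adjusted p = 0.0739) and Cyp11a1 (-1.25, SE 0.260, adjusted p = 0.0916) had differences of the same sign that missed the threshold. Without vector uncoated replicate 2 the count was 4, with Cyp1a1 and Cyp2c55 added and 0.637% of all genes called, and it was 0 with dim genes left out, since neither Cyp4f14 nor Cyp2c65 then remained. For Cyp4a12a, Cyp4b1, Cyp4f13 and Cyp4f16 the differences were -0.52, -0.08, -0.23 and 0.17, with 95% confidence intervals of -1.48 to 0.44, -0.90 to 0.75, -0.76 to 0.31 and -0.26 to 0.60.

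**Figure D3:**
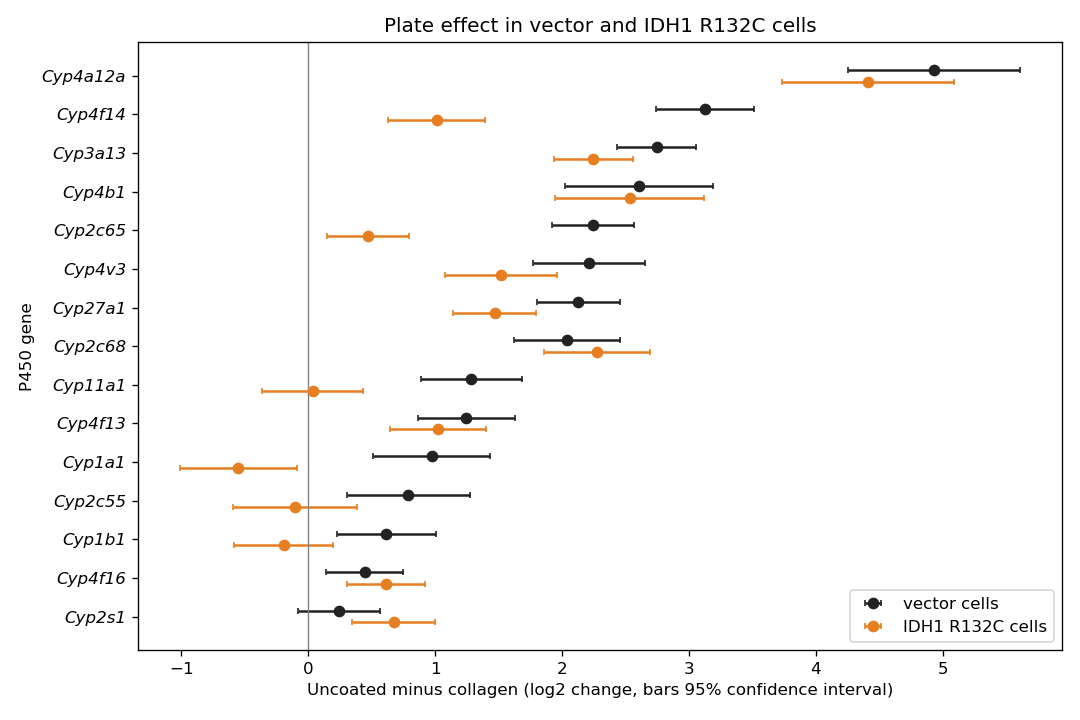
Change from collagen to uncoated plates (log2, horizontal axis) of the 15 P450 genes that rose, in vector cells (black) and IDH1 R132C cells (orange), with 95% confidence intervals from the limma fit. The intervals of Cyp4f14 and Cyp2c65 lie far apart in the 2 kinds of cell (3.13 against 1.01 and 2.25 against 0.47), while those of Cyp4b1 and Cyp2c68 overlap.

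Set directly against vector on uncoated plates, R132C cells had 7 P450 genes lower and none higher (11.3% of members), against 1.49% of all genes lower and 0.896% higher (2.39% in all). The median change of the members was -0.07 and that of all genes -0.01. This comparison shares its vector arrays with the plate comparison above, so both are given side by side and not counted together. Cyp4f14 was lower by 4.51-fold (log2 change -2.17, SE 0.177, adjusted p = 1.89e-05). Cyp2c65 was lower by at least 2.38-fold (-1.92, SE 0.149, adjusted p = 1.5e-05) and Cyp1a1 by at least 1.98-fold (-1.59, SE 0.213, adjusted p = 0.00158). For Cyp11a1 the change was -1.29 (SE 0.184, adjusted p = 0.00266) and for Cyp3a13 -1.10 (SE 0.143, adjusted p = 0.00138).

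The remaining pair, Cyp4v3 and Cyp27a1, changed by -1.08 (SE 0.203, adjusted p = 0.0157) and -0.99 (SE 0.152, adjusted p = 0.00405). The Cyp4v3 call was lost with the mean of its probe sets (-0.75, adjusted p = 0.0770). Both calls were lost without vector uncoated replicate 1 (-0.93 and -0.87, adjusted p = 0.207 and 0.0751) and without R132C uncoated replicate 1 (-1.03 and -0.90, adjusted p = 0.161 and 0.0773). The R132C and vector arrays did not overlap for any of the 7 genes. These were chosen by the test on the same arrays, so nothing is read from that. With dim genes left out the other 5 were not tested and the count was 2, Cyp3a13 and Cyp27a1. Cyp4a12a, Cyp4b1 and Cyp2c68 differed by -0.62, -0.34 and -0.10, with 95% confidence intervals of -1.30 to 0.05, -0.93 to 0.24 and -0.52 to 0.32. Markers differed on this plate too. Of the 6 intestinal markers 2 were lower in R132C cells, Cdx2 (-1.17) and Fabp2 (-1.39), and none was higher. Of the 11 hepatocyte markers 1 was lower, Ttr (-1.73, adjusted p = 2.63e-05). Of the 6 biliary markers 2 were lower, Epcam (-1.49) and Cftr (-0.74), the latter near background on all arrays. Of the 4 hepatoblast markers 1 was higher, Afp (1.45). Their part in the P450 difference was not tested.

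On collagen the IDH forms were compared to ask what each mutant changed there. R132C against wild-type IDH1 gave no P450 call, and 0.0484% of all genes were called. An unadjusted p under 0.05 was held by 5 of 62 members and 932 of 12393 genes. R172K against wild-type IDH2 gave 1 P450 call, Cyp3a13, against 1.73% of all genes (1.14% lower). There, 9 of 62 members and 2089 of 12393 genes had an unadjusted p under 0.05. Cyp3a13 read 8.82 and 9.16 with wild-type IDH2 and 7.82 and 8.15 with R172K (-1.0, SE 0.143, adjusted p = 0.00525). With wild-type IDH1 it read 9.07 and 9.07, and with R132C 8.44 and 8.43 (-0.63, SE 0.143, adjusted p = 0.199). In both cases the mutant arrays lay below the wild-type arrays. Cyp3a13 was chosen by the test on the same arrays, so nothing is read from that order. With both mutants set against both wild types, which uses these arrays again, the change was -0.82 (SE 0.101, adjusted p = 0.00156). The R172K call was lost without wild-type IDH2 replicate 2 (-0.83, adjusted p = 0.0780) and when only the arrays compared were fitted (adjusted p = 0.0674), and without R172K replicate 2 the count of P450 calls was 11, or 17.7% of members, where 18.8% of all genes were called.

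With both mutants against both wild types, 2 members were called (3.23%, against 3.61% of all genes, of which 1.18% of genes were higher and 2.44% lower), a share near the background. Besides Cyp3a13 this was Cyp2c50, a CYP2C enzyme, with 0.36 (SE 0.0732, adjusted p = 0.0200). It was near background on all 14 arrays, so it has no fold. Its call was lost, leaving a count of 1, without wild-type IDH1 replicate 2, either R132C array or either wild-type IDH2 array. Without R172K replicate 2 the count was 7, or 11.3% of members, where 14.5% of all genes were called.

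Other members had differences of similar size that did not pass. Cyp2j6, an arachidonic acid epoxygenase, read 5.80 and 6.32 with wild-type IDH1 and 5.05 and 5.53 with R132C. It read 5.90 and 6.45 with wild-type IDH2 and 4.57 and 5.34 with R172K. The mutant arrays lay below the wild-type arrays, but Cyp2j6 was named after its values were seen, so nothing is read from that order. Replicate 2 lay above replicate 1 in each of these groups (both mutants -1.0, SE 0.261, adjusted p = 0.0551). Cyp39a1 read 7.84 and 8.85 with wild-type IDH1 and 6.90 and 7.52 with R132C (-1.14, SE 0.419, adjusted p = 0.511). Cyp27a1 differed by -0.31 with both mutants (SE 0.107, adjusted p = 0.140).

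**Figure D4:**
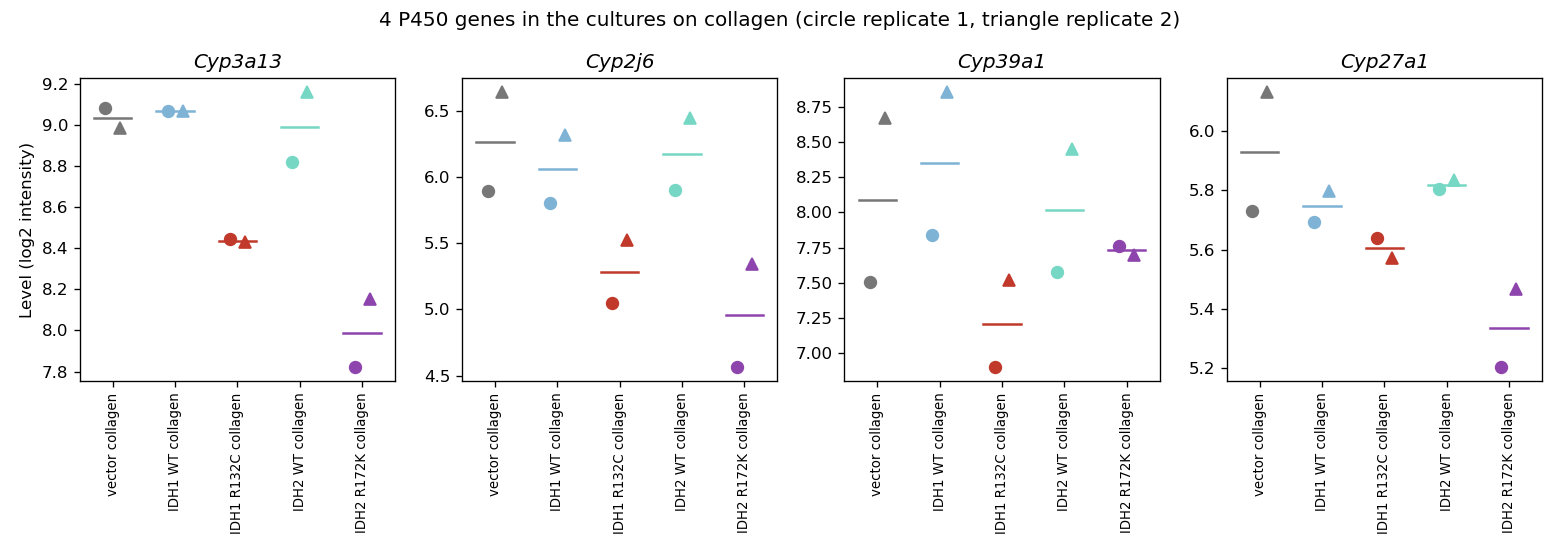
Level (log2 intensity) of Cyp3a13, Cyp2j6, Cyp39a1 and Cyp27a1 in the 5 groups on collagen, with replicate 1 as a circle, replicate 2 as a triangle and their mean as a line, and a separate vertical scale per panel. Cyp3a13 lies between 8.82 and 9.16 in vector and wild-type cells, at 8.43 and 8.44 in R132C cells and at 7.82 and 8.15 in R172K cells, and Cyp39a1 shows replicate 2 above replicate 1 in all groups but R172K.

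Markers and regulators moved in the same collagen comparison. Hnf4a, the hepatocyte nuclear factor that drives many liver P450 genes, was lower with both mutants (-0.54, SE 0.0809, adjusted p = 0.00462) and with R172K (-0.66, SE 0.114, adjusted p = 0.0162). Of the 6 measured intestinal markers 2 were lower with both mutants, Vil1 and Cdh17 (-0.87 and -0.85), and none was higher. Epcam (-0.75) was the only 1 of 6 biliary markers called, and Cd14 (-0.51) the only 1 of 7 leukocyte markers. Of the 4 hepatoblast markers only Afp was called, and it was higher (0.84). None of the 11 hepatocyte markers was called. The summed level of the intestinal list was 11.82 to 11.96 with wild-type IDH2 and 10.83 to 11.25 with R172K. The part of these markers and regulators in the Cyp3a13 difference was not tested. Wild-type IDH1 and wild-type IDH2 against vector gave no P450 call and 0% of all genes called by limma, with 3 and 1 members and 128 and 116 of all genes at an unadjusted p under 0.05.

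Genes that work with or control P450s were counted from lists, each to be read against the 15.1% of all genes that rose and 14.2% that fell on uncoated plates in vector cells, and 13.6% and 12.3% in R132C cells. Among transcription factors that control P450 genes, 6 of 23 measured rose on uncoated plates in vector cells (26.1%) and 1 fell, and 3 rose in R132C cells (13%), the latter a share near that of all genes. Cebpa and Cebpd, C/EBP factors of liver and fat, rose by 2.73 and 2.40 in vector and 1.95 and 1.59 in R132C cells (SE 0.204 and 0.284, adjusted p = 1.74e-06, 5.28e-05, 5.82e-05 and 0.00139). Cebpd was near background on 6 of 14 arrays, with a vector mean of 4.51 on collagen. Nr1i2, the pregnane X receptor that turns on CYP3A and CYP2C genes, was near background on 12 of 14 arrays, all but the uncoated vector arrays. It was at least 1.78-fold higher there than in vector cells on collagen (adjusted p = 5.76e-05) and at least 1.84-fold higher than in uncoated R132C cells (adjusted p = 0.00282). Nr1i3, the constitutive androstane receptor, was near background in all groups. Ahr, the aryl hydrocarbon receptor, fell by 0.34 in vector cells (adjusted p = 0.00547).

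The target genes of these receptors outside the P450s were mixed. Of 17 measured targets of PPAR alpha, the fatty acid receptor that also controls CYP4A genes, 9 rose (52.9%) and 1 fell in vector cells and 7 rose in R132C cells (41.2%). Acot1, a fatty acyl-CoA thioesterase, rose by 2.70 and 2.20, and Cpt1a, which admits fatty acids to mitochondria, rose by 2.40 and 1.68. The list median was 0.37 in vector and 0.25 in R132C cells, against -0.02 and -0.03 for all genes. Cyp4a14, a CYP4A gene and known PPAR alpha target, was near background throughout. Of 10 measured targets of the aryl hydrocarbon receptor, 2 rose (20.0%) and 1 fell (10.0%) in each kind of cell. Gstm1 and Aldh3a1 rose by 1.35 and 1.47 in vector and by 1.11 and 1.86 in R132C cells, where Cyp1a1 did not rise. Slc7a5 fell by 1.40 in vector and 1.38 in R132C cells.

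Of the 10 bile acid synthesis genes outside the P450s, 6 rose in vector (60.0%) and 3 in R132C cells (30.0%) and none fell, 1 of the 6, Akr1d1, being near background on all arrays, with list medians of 0.42 and 0.15. Acox2 and Scp2, which shorten the bile acid side chain in peroxisomes, rose by 1.47 and 0.80 in vector and by 2.53 and 0.76 in R132C cells. Among P450 enzymes of that route, Cyp27a1 rose while Cyp7a1 and Cyp7b1 were near background. Cyp39a1, above the quartile on all arrays, and Cyp8b1, above it on all but 1, were not called in either plate comparison.

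The electron donors and haem enzymes that P450s need showed no common direction. Of 7 measured redox partners, 2 rose and 2 fell in vector cells (28.6% each) and 2 rose in R132C cells. P450 reductase (Por) and adrenodoxin reductase (Fdxr) were on the list but not among the 7 measured. Cyb5a, cytochrome b5, rose by 0.61 and 0.43 and Pgrmc1, a haem-binding membrane partner, by 0.43 and 0.29. Cyb5r1 and Cyb5b fell by 0.54 and 0.42 in vector cells. Of 11 measured haem genes, 3 rose (27.3%) and 2 fell (18.2%) in vector cells, and 1 rose (9.09%) and 2 fell in R132C cells. Of 14 measured retinoid genes, 2 rose (14.3%) and 1 fell (7.14%) in vector cells, and 1 rose and 1 fell in R132C cells. Rbp4, the retinol carrier of plasma, rose by 0.78 and 0.99. Stra6 fell by 0.50 in vector cells and Aldh1a1 by 1.42 in R132C cells. Cyp26a1, which breaks down retinoic acid, was near background on all arrays.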

How the data were processed

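Total RNA of 14 hepatoblast cultures was measured on Affymetrix mouse expression arrays, with 2 cultures in each of 7 groups. The authors deposited an intensity per probe set. RMA, the robust multi-array average, is named without a version by the submitters' processing notes. They ran from 5.84 to 26769.7, a linear scale, so log2 was taken. Array background and detection calls were not used here, and precision is set by having 2 arrays a group.

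Of 22690 probe sets, 64 controls, 691 with several symbols and 1555 absent from the platform table were left out, and 20380 with 1 symbol gave 12393 genes by the highest mean. All 62 P450 symbols matched RefSeq, and 7 of their probe sets are of kinds that may read related genes. Group means over all arrays were fitted with limma 3.58.1 in R 4.3.3 (lmFit, eBayes with an intensity trend, 7 residual and 5.67 prior degrees of freedom), p-values were adjusted by Benjamini-Hochberg over all genes within each of 9 comparisons, and genes under 0.05 were called. The fit was tested on simulated data. P-values measure only the spread between these cultures.

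P450 genes called in any comparison, the 6 with the highest level on vector collagen (a way to choose names, not an order of amounts), and up to 4 called genes per list (or 2 where fewer than 2 were called) were named. Others were chosen after their values were seen, such as Cyp2j6 and the adult liver enzymes near background. Members and lists were chosen with earlier results of these data known. A bound on a fold sets the brighter group against the mean lower quartile of the dim group's arrays. Promoters come from RefSeq. Alternatives were averaging the probe sets of a gene, dim genes left out, cyclic loess, log2 of the value plus 16, no intensity trend, the replicate number as a block, only the arrays compared, each array left out, and, added after seeing the data, arrays centred on their median and every probe set by itself.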

Additional observations from a re-analysis of the deposited data

Results flagged for a closer look

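Among the P450 genes, 2 had plate effects that differed between R132C and vector cells by the test of the difference itself. The effect in R132C cells minus that in vector cells was -1.77 log2 for Cyp2c65 and -2.12 log2 for Cyp4f14. Both genes were near background on collagen in both kinds of cell, so the size of these differences is not known.

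Signals also appeared in P450 probe sets that did not stand for their gene, as the change from collagen to uncoated plates in vector cells. A further probe set of Cyp2b10, a phenobarbital-inducible P450, gave 0.68 (adjusted p = 0.0138, limma over all probe sets), but was near background on all 14 arrays (means of 3.66 and 4.34), so it has no fold, where the set used for the gene gave 0.10. The second probe set of Cyp4v3 rose by 1.31 (adjusted p = 0.000420), from a mean of 3.60, under the quartile, to 4.91. A probe set annotated to both Cyp4f37 and Cyp4f16 rose by 0.85 (adjusted p = 0.0252), from 5.19 to 6.03. Groups of 2 arrays were too small to look for arrays far from their replicates.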

How the results depend on the processing

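Of 126 counts of P450 calls under the alternatives, 110 stayed within 1.5 times the reported count and 16 moved, and of 442 changes of named genes 410 kept their call, 32 lost it and 0 reversed. With dim genes left out, 7 P450 genes were called for the plate in vector cells, 0 for the difference between plate effects and 2 for R132C against vector on uncoated plates, with 13 members among 8675 genes left to test. Of these genes 41.6%, 0.127% and 2.55% were called in the same comparisons, and since members such as Cyp4a12a (collagen arrays near background) passed that filter only through the group where they are high, its counts support nothing. With only the arrays compared, R172K against wild-type IDH2 gave 0. Leaving out each array in turn gave 10 to 13 calls for the plate in vector cells, 9 to 12 in R132C cells, 2 to 4 for the difference, 5 to 8 for R132C against vector on uncoated plates, 0 to 11 for R172K against wild-type IDH2, 1 to 7 for both mutants (18.8% and 14.5% of all genes at the 11 and the 7), and 0 for R132C against wild-type IDH1 and for each wild type against vector. The lone array of a group was then assumed to vary like the others. Where no share of all genes stands beside such a count, it is not read as particular to P450s. Single genes also lost their call when only the arrays compared were fitted (Cyp2c55 at adjusted p = 0.0810, Cyp4f16 at 0.0750 and Cyp2c50 at 0.0675), and Cyp2c65 in R132C cells with 16 added (0.0560) or arrays centred on their median (0.0503). The cause was not tested.

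With the replicate number as a block, 4 P450 genes were called for the difference (Cyp1a1 and Cyp11a1 added), 1 for R132C against wild-type IDH1 (Cyp39a1) and 4 for both mutants (Cyp2j6 and Cyp39a1 added), and it changed the count by no more than 1.5 times elsewhere. The share of all genes called with the block is not given here, so the added calls are not read as particular to P450s. Deviations of same-numbered arrays correlated at r = -0.04 to 0.49 over 21 pairs of groups, above 0.1 in 13, which include all 10 pairs of collagen groups (0.11 to 0.49). The labels give no shared origin for a number, so the arrays are taken to share only a number.

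Signal over background limits the 36 members near background: absence of a call there says little of their RNA.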
